A study of Homo sapiens with 4 samples.

Results

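The genes described here are 10 components and readouts of bone morphogenetic protein (BMP) signalling, BMP4, BMPR1A, BMPR2, SMAD1, SMAD5, SMAD6, SMAD7, ID1, ID2 and ID3, chosen by symbol among the 26603 genes of the table. RNA of the human liver tumour cell line PLC8024 was sequenced in 2 drug-treated libraries and 2 control libraries. Which drug was given, at what dose and for how long is not in the labels. Nor do they say that the 2 libraries of a group are separate cultures, and p-values then cover the spread between libraries, which may be technical. Values are FPKM, fragment counts scaled for gene length and library total, and group values are mean ± SD with n = 2 libraries each.

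BMPs are secreted ligands that bring type I and type II receptor kinases together. The activated type I receptor phosphorylates SMAD1, SMAD5 and SMAD9, which join SMAD4 and enter the nucleus. ID1, ID2 and ID3 are among the direct targets of these Smads, and the ID proteins bind E proteins and keep them from binding DNA. SMAD6 and SMAD7 are also induced by the pathway and inhibit it. In hepatocytes BMP6 and the receptors that sense it drive hepcidin, the hormone that limits iron uptake.

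With drug, 3 readouts of the pathway and a ligand gene moved in opposite directions. ID1 and ID2 fell to 61.0% and 65.9% of their control means, SMAD6 fell to 76.2%, and BMP4 rose to 165% of its control mean. The call of SMAD6, unlike those of ID1, ID2 and BMP4, did not hold under all alternative settings given below. The receptor genes BMPR1A and BMPR2 and the Smad genes SMAD1 and SMAD5 had means between 97.6% and 105% of control and did not pass the test. SMAD7 stood at 87.1% of control and did not pass. ID3 was barely detected in either group. Of the 9 members tested, 1 passed as higher and 3 as lower, with 0.05 as the threshold for the adjusted p (limma on log2(FPKM + 1), Benjamini-Hochberg over 11227 genes). In the same test 7.78% of all tested genes rose and 6.02% fell. ID3 lay below the filter of a mean of 1 FPKM in at least 1 group.

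**Figure D1:**
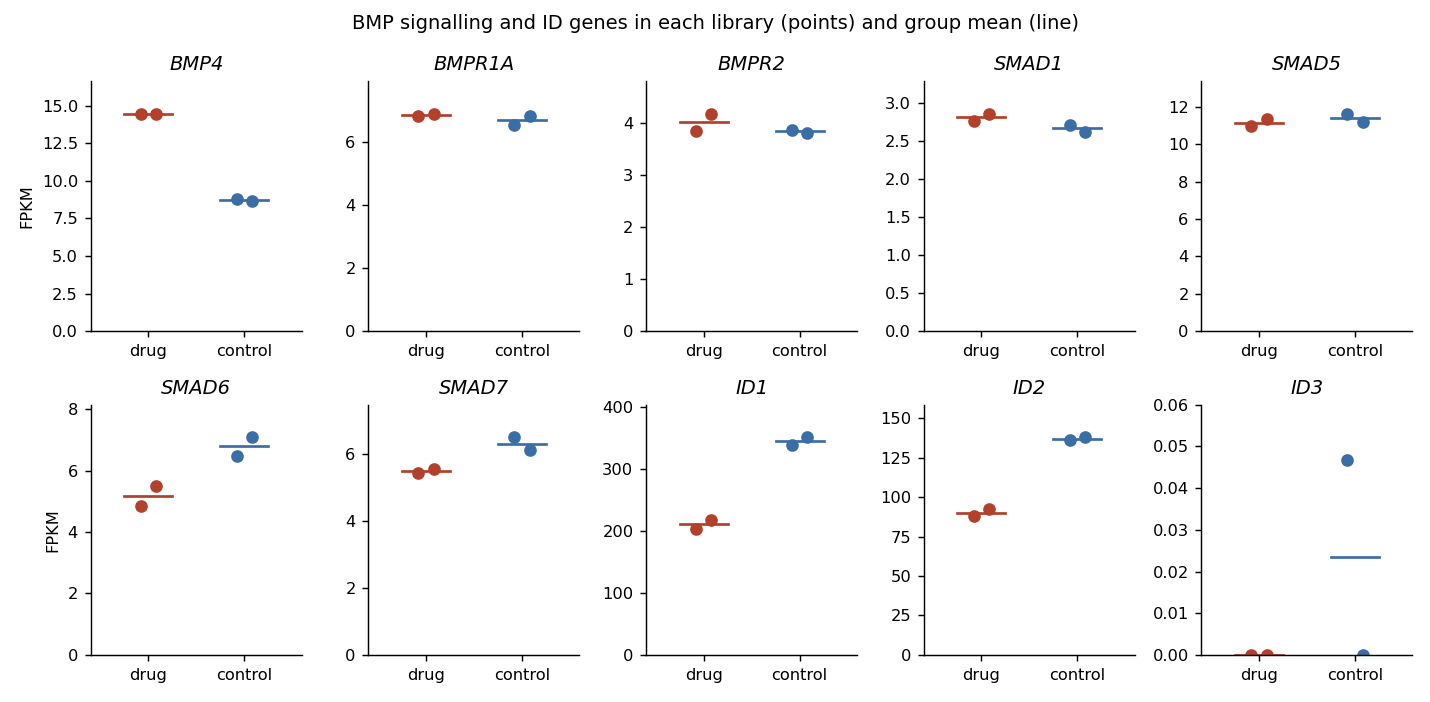
FPKM of each of the 10 genes in the drug libraries (red points) and control libraries (blue points), with lines at group means and axes that start at 0. ID1, ID2 and SMAD6 sit lower in both drug libraries, BMP4 sits higher in both, and ID3 is at or near 0 in every library.

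Recovered gene reads totalled 40279560 and 38685856 in drug libraries 1 and 2, and 28526098 and 38611635 in control libraries 1 and 2. Of 10 hepatocyte markers 8 averaged at least 1 FPKM, while APOB and TTR were near 0 in every library. The summed FPKM of the 10 markers was 799 to 829 in drug libraries and 1065 in each control library. FGB, a fibrinogen gene, made that difference, with 295 and 274 FPKM in drug libraries and 556 and 549 FPKM in control libraries, and without it the sum was 534 and 524 FPKM in drug libraries and 510 and 515 FPKM in control libraries. Of the 8, 5 were lower in both drug libraries than in both controls, 2 were higher and 1 overlapped. Over all genes tested with limma, 23.3% were lower in this sense and 40.3% higher. Besides FGB, the lower markers were ALB, TF, APOA1 and APOH. ALB had 1.31 and 1.32 FPKM in drug libraries, against 3.15 and 3.23 FPKM in control libraries. The higher markers were AMBP and HNF4A. AMBP, the larger part of the sum without FGB, had 391 and 382 FPKM in drug libraries and 348 and 355 FPKM in control libraries. HNF4A had 25.4 and 25.5 FPKM in drug libraries and 22.5 and 22.3 FPKM in control libraries. Of 5 cholangiocyte, 7 fibroblast or stellate, 5 endothelial and 5 immune markers, 1, 0, 1 and 0 averaged at least 1 FPKM. These were SOX9 and PECAM1, and PECAM1 had 2.09 and 2.23 FPKM in drug libraries and 4.66 and 4.11 FPKM in control libraries. The part of these marker levels in the results was not tested. In such bulk RNA, fewer cells of a type and less RNA per cell cannot be told apart.

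BMP4 encodes a BMP ligand and lies on chromosome 14 at 53949736 to 53958761 (GRCh38, minus strand). It had 14.5 and 14.4 FPKM in drug libraries, against 8.82 and 8.68 FPKM in control libraries, on 1805 and 1730 reads with drug and 779 and 1038 reads in control. The groups did not overlap. The means were 14.5 ± 0.0215 FPKM with drug and 8.75 ± 0.0971 FPKM in control, a log2 fold change of 0.66 ± 0.03 (SE, limma adjusted p = 0.00147). BMP4 ranked as number 93 from the top by log2 fold change among the 11227 tested genes.

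Other ligand genes were read from a list of 12. For this and the later lists, counts stand beside 7.78% of all tested genes that rose and 6.02% that fell. Of its 3 tested members, none rose and 1 fell, BMP6, with 31.7 and 31.4 FPKM in drug libraries and 34.4 and 35.4 FPKM in control libraries. The log2 fold change of BMP6 was -0.14 ± 0.03 (SE, limma adjusted p = 0.0424), and each of the 4 fits with a library left out missed the threshold (adjusted p = 0.0957 to 0.168). BMP6 was the more abundant ligand transcript of the pair in every library. The BMP6 to BMP4 ratio of FPKM was 2.19 and 2.18 in drug libraries, against 3.89 and 4.07 in control libraries. BMP8B (log2 fold change 0.11) and GDF7 (-0.09) did not pass (adjusted p = 0.297 and 0.380), and BMP2 stayed below 1 FPKM.

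BMPR1A encodes a type I BMP receptor kinase and lies on chromosome 10 at 86756601 to 86932838. Its levels were 6.84 and 6.90 FPKM in drug libraries and 6.55 and 6.83 FPKM in control libraries. The drug values lay just above both controls, and the log2 fold change was 0.03, with a 95% interval from -0.07 to 0.14 (limma adjusted p = 0.601). BMPR2, the type II receptor gene on chromosome 2 at 202376936 to 202567751, had 3.85 and 4.18 FPKM in drug libraries and 3.88 and 3.82 FPKM in control libraries. These groups overlapped, with a log2 fold change of 0.05 and an interval from -0.09 to 0.19 (limma adjusted p = 0.576). The intervals do not show that receptor transcripts are equal, and they contain no change as large as that of BMP4 or ID1. The processed pseudogenes BMPR1AP1 and BMPR1AP2, copies of BMPR1A, had at most 11 reads in any library.

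Of 10 further receptor and co-receptor genes 4 were tested and none passed. They were ACVR1, a type I receptor gene (log2 fold change 0.11, limma adjusted p = 0.196), the type II receptor genes ACVR2A (0.02, adjusted p = 0.908) and ACVR2B (0.05, adjusted p = 0.683), and NEO1, the neogenin gene (0.04, adjusted p = 0.611).

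SMAD5, one of the Smads that BMP receptors phosphorylate, was the most abundant of the 4 Smad members. It lies on chromosome 5 at 136132845 to 136188747 and had 10.96 and 11.3 FPKM in drug libraries, against 11.6 and 11.2 FPKM in control libraries. The groups overlapped, and the log2 fold change was -0.03 with a 95% interval from -0.13 to 0.07 (limma adjusted p = 0.606). SMAD1, on chromosome 4 at 145481194 to 145558079, had 2.76 and 2.86 FPKM in drug libraries and 2.71 and 2.62 FPKM in control libraries. Both drug values lay above both controls by a small margin, and the log2 fold change was 0.06 with an interval from -0.09 to 0.20 (limma adjusted p = 0.539). The opposite-strand genes SMAD5-AS1 and SMAD1-AS1 overlap 6.75% of SMAD5 and 6.21% of SMAD1 exon length and were not analysed here. Whether counting used strand is not given in the sources used here.

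Of 4 other Smad genes, 3 were tested and SMAD3, which acts in the TGF-beta branch, rose. SMAD3 had 12.5 and 12.9 FPKM in drug libraries and 11.03 and 11.3 FPKM in control libraries (log2 fold change 0.17 ± 0.04 SE, limma adjusted p = 0.0434). SMAD3 missed the threshold in each of the 4 fits with a library left out (adjusted p = 0.0994 to 0.173). SMAD4, the partner shared by both branches, had a log2 fold change of 0.06 and did not pass (limma adjusted p = 0.505). SMAD9 stayed below the filter, with 0.175 and 0.208 FPKM in drug libraries and 0.271 and 0.361 FPKM in control libraries.

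SMAD6, an inhibitory Smad gene that BMP signals induce, lies on chromosome 15 at 66702228 to 66782848 (plus strand). It had 4.86 and 5.49 FPKM in drug libraries, against 6.49 and 7.08 FPKM in control libraries, on 1675 and 1816 reads with drug and 1584 and 2340 reads in control. The groups did not overlap, but the libraries within each group differed more than those of ID1 or BMP4 relative to the mean. The means were 5.17 ± 0.443 FPKM with drug and 6.79 ± 0.419 FPKM in control, a log2 fold change of -0.34 ± 0.07 (SE, limma adjusted p = 0.0405). SMAD6 lost its call without drug replicate 1 (adjusted p = 0.117), drug replicate 2 (0.0657), control replicate 1 (0.0894) or control replicate 2 (0.131), and with no filter on low values (0.146). With edgeR on recovered reads its adjusted p was 0.00165.

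SMAD7, an inhibitory Smad gene that BMP and TGF-beta signals both induce, lies on chromosome 18 at 48919853 to 48952052. Its levels were 5.44 and 5.56 FPKM in drug libraries and 6.50 and 6.12 FPKM in control libraries. Both drug values lay below both controls, with a log2 fold change of -0.17 and a 95% interval, not adjusted for the number of genes, from -0.29 to -0.05. The gene did not pass limma (adjusted p = 0.0756) or DESeq2 on recovered reads (0.0936), and it passed edgeR on recovered reads by a narrow margin (0.0495). The gene length implied by the FPKM of SMAD7 was 3946 bases, against 5033 bases of exon in GENCODE 29, so the authors' gene model differed from that annotation. Implied lengths also differed for BMPR1A (10075 against 11412 bases), BMPR2 (12503 against 11900), SMAD1 (7094 against 6058) and ID3 (1496 against 1797).

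Summed over each kind, SMAD1 and SMAD5 had 1.33 and 1.29 times the FPKM of SMAD6 and SMAD7 in drug libraries, against 1.11 and 1.05 times in control libraries. The sum for SMAD6 and SMAD7 was 10.3 and 11.05 FPKM in drug libraries and 12.99 and 13.2 FPKM in control libraries. The sum for SMAD1 and SMAD5 was 13.7 and 14.2 FPKM in drug libraries and 14.4 and 13.8 FPKM in control libraries, so these groups overlapped. With 2 libraries against 2, an exact two-sided permutation test of such a ratio cannot give a p below 0.333, and none is given.

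ID1, a target that Smads activate directly, lies on chromosome 20 at 31605283 to 31606515 (plus strand). It had 203 and 218 FPKM in drug libraries, against 339 and 350 FPKM in control libraries. The reads were 10075 and 10380 with drug and 11912 and 16682 in control. All 4 values were high for this group of genes, and the drug libraries lay far below both controls. The means were 210.2 ± 10.4 FPKM with drug and 345 ± 8.29 FPKM in control, a log2 fold change of -0.71 ± 0.04 (SE, limma adjusted p = 0.00201). ID1 ranked as number 98 from the bottom by log2 fold change.

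ID2 lies on chromosome 2 at 8678845 to 8684453 (plus strand) and encodes another protein of the family. It had 87.9 and 92.4 FPKM in drug libraries, against 136 and 138 FPKM in control libraries. The groups did not overlap. The means were 90.2 ± 3.21 FPKM with drug and 137 ± 1.32 FPKM in control, a log2 fold change of -0.60 ± 0.03 (SE, limma adjusted p = 0.00163), and ID2 ranked as number 149 from the bottom. The antisense gene ID2-AS1 overlaps 38 bases of ID2 exons and had 257 to 325 reads in drug libraries and 189 to 265 reads in control libraries, against 7836 and 7915 ID2 reads with drug and 8584 and 11778 in control. The pseudogene ID2B had 0 reads in drug libraries and 2 and 1 reads in control libraries.

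ID3 lies on chromosome 1 at 23557918 to 23559794. It had 0 reads in each drug library, and 2 reads and 0 reads in control libraries 1 and 2. A count of 0 allows up to 3 reads, which is 0.0498 and 0.0518 FPKM in drug libraries 1 and 2 and 0.0519 FPKM in control library 2. Both groups were at or below that limit, so no fold change is given, and the limit covers counting error only.

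**Figure D2:**
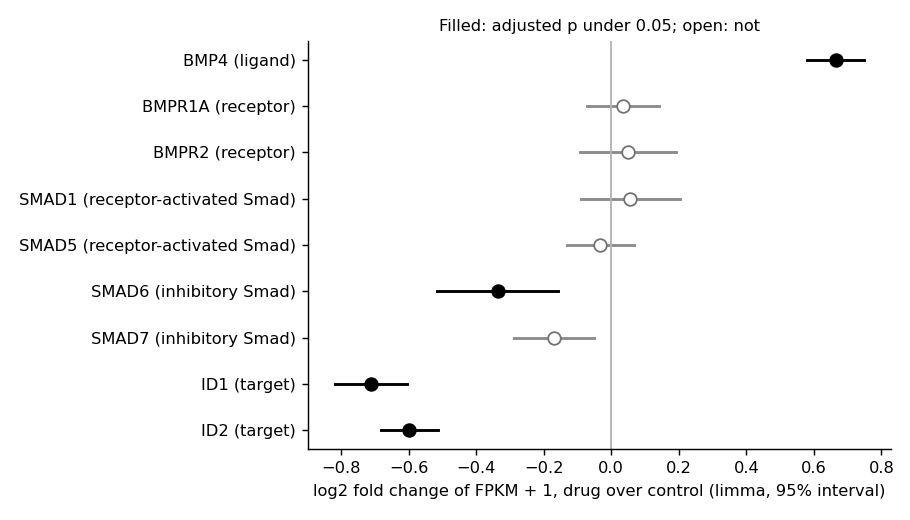
Log2 fold change of FPKM + 1, drug over control, for the 9 members tested, with limma 95% intervals, ordered from ligand to targets. BMP4 lies at 0.66, the receptors and SMAD1 and SMAD5 lie within 0.06 of 0, and ID1 and ID2 lie at -0.71 and -0.60.

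The promoters of the 3 members that fell are printed because these genes moved in the same direction and are Smad targets. Each is 300 bases from RefSeq (GRCh38.p14), from 250 bases before the start RefSeq gives to 50 after it, on the gene's own strand. That start lies 6 and 8 bases after the first base of the gene coordinates given here for ID1 and SMAD6, and 3211 bases after it for ID2. Capitals mark matches to GGCGNC, a GC-rich core found in Smad-bound sites of BMP targets, and to the palindrome GTCTAGAC, a Smad-binding element, on either strand. The windows are chr20:31605039-31605338 for ID1, chr2:8681806-8682105 for ID2 and chr15:66701986-66702285 for SMAD6, all on the plus strand.
ID1: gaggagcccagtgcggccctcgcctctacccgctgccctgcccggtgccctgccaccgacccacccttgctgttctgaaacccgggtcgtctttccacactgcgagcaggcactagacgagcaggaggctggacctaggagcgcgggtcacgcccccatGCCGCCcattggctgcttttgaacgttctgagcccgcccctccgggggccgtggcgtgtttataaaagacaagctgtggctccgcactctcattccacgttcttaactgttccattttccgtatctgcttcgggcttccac
ID2: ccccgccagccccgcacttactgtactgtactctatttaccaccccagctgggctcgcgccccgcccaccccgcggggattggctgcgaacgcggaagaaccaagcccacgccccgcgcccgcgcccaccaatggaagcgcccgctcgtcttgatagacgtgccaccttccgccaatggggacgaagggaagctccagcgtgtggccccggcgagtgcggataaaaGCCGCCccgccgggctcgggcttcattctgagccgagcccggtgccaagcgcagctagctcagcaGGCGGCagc
SMAD6: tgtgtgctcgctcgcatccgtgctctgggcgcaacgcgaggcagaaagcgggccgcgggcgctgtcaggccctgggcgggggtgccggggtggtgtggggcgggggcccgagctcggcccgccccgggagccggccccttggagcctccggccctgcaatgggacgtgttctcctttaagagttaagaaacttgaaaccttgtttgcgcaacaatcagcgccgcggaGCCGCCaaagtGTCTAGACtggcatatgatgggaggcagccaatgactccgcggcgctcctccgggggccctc

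All 3 promoters were GC-rich, at 62.7% for ID1, 69.0% for ID2 and 68.0% for SMAD6, against a median of 58.7% over 35116 promoter windows. GGCGNC matched in all 3, but it also matched in 14 of the 18 windows of the 10 members, covering every member except BMPR1A, and in 48.9% of all windows. SMAD6 also held GTCTAGAC, at positions 239 to 246 of the window, a sequence in 71 of the 35116 windows (0.202%). No other window of the members held it. The motif GGCGCC, found in 19.2% of all windows, matched windows of BMP4, BMPR2, SMAD1 and SMAD5 and none of ID1, ID2, SMAD6 or SMAD7. A match is a string of letters and does not show that a factor binds there, and the absence of a match covers this window alone.

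The ID family can be compared per length. ID4, an ID gene that was not among the 10, also fell. It had 41.5 and 44.8 FPKM in drug libraries, against 56.3 and 57.6 FPKM in control libraries (log2 fold change -0.39 ± 0.04 SE, limma adjusted p = 0.0092). Summed over the 4 ID genes, FPKM was 332 and 355 in drug libraries, against 531 and 546 in control libraries. ID1 supplied 61.1% and 61.3% of the sum in drug libraries, against 63.8% and 64.2% in control libraries, and ID4 supplied 12.5% and 12.6% against 10.6% in each control library. The ID1 to ID2 ratio was 2.31 and 2.35 in drug libraries and 2.49 and 2.54 in control libraries. The groups did not overlap in either measure, and these ratios and shares were not tested.

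The E proteins that ID proteins bind did not pass. TCF12 had 16.2 and 15.98 FPKM in drug libraries and 15.8 and 15.3 FPKM in control libraries (limma adjusted p = 0.411), and TCF3 had 7.05 and 7.49 FPKM in drug libraries and 8.06 and 7.43 FPKM in control libraries (adjusted p = 0.363). TCF4 stayed under 0.04 FPKM in all libraries. The summed FPKM of ID1, ID2 and ID3 was 12.5 and 13.2 times that of the 3 E protein genes in drug libraries, against 19.8 and 21.5 times in control libraries. That sum leaves out ID4. The ratio is one of transcripts, not proteins, and was not tested.

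In limma, further BMP target genes were called in both directions. The call of the riser, HES1, did not hold in edgeR or DESeq2. Of 14 on the list 6 were tested, of which 1 rose and 3 fell, while 7.78% of all tested genes rose and 6.02% fell. The list holds neither the members nor BAMBI, a target given below. Its 6 tested genes had a median log2 fold change of -0.32, against 0.04 over all genes tested. The list was chosen with earlier results of these data known, so its counts and median are a description and not independent support. HEY1 (log2 fold change -0.25, limma adjusted p = 0.115) and RUNX3 (-0.04, adjusted p = 0.703) did not pass limma. On recovered reads HEY1 passed as lower in edgeR (log2 fold change -0.50, adjusted p = 0.0371) and DESeq2 (-0.50, adjusted p = 0.0437). RUNX3 passed neither (edgeR adjusted p = 0.525, DESeq2 adjusted p = 0.704). Besides ID4, those that fell were GATA2, a transcription factor gene (6.31 and 6.97 FPKM in drug libraries, 9.36 and 9.99 FPKM in control libraries, limma adjusted p = 0.012), and GATA3 (0.863 and 0.814 FPKM in drug libraries, 1.55 and 1.39 FPKM in control libraries, adjusted p = 0.0435). HES1, a repressor better known as a Notch target, rose (17.2 and 17.4 FPKM in drug libraries, 15.4 and 14.5 FPKM in control libraries, limma adjusted p = 0.0354). GATA3 and HES1 missed the threshold in each of the 4 fits with a library left out, GATA2 lost its call without control replicate 2 (adjusted p = 0.0538), and HES1 did not pass edgeR (0.0716) or DESeq2 (0.179). HAMP, the hepcidin gene, was below the filter, with 0 reads in each drug library and 6 and 10 reads in control libraries.

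Among the genes reported of the 8 lists, secreted inhibitors showed the widest range of log2 fold changes. Of 5 tested of 15 listed, 1 passed the test. FST, whose product follistatin binds activins and some BMPs, rose to 66.3 and 64.6 FPKM in drug libraries, against 40.1 and 43.2 FPKM in control libraries (log2 fold change 0.64 ± 0.04 SE, limma adjusted p = 0.00311). CHRD, the chordin gene, had 0.924 and 1.14 FPKM in drug libraries and 1.52 and 1.49 FPKM in control libraries and did not pass limma (log2 fold change -0.30, adjusted p = 0.0989). On recovered reads CHRD passed edgeR (log2 fold change -0.58, adjusted p = 0.0205) and DESeq2 (-0.58, adjusted p = 0.00657). The noggin gene NOG was under 0.3 FPKM in every library.

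Of 16 intracellular brakes and modifiers, all were tested, 1 rose and 1 fell. That is near the shares over all tested genes, of which 7.78% rose and 6.02% fell. SKIL, a co-repressor of Smads and a TGF-beta target, rose to 24.5 and 25.6 FPKM in drug libraries, against 19.2 and 20.1 FPKM in control libraries (limma adjusted p = 0.0108). It lost its call without drug replicate 2 (adjusted p = 0.0557) or control replicate 1 (0.0525). USP9X, a deubiquitinase that acts on SMAD4, fell to 35.1 and 35.2 FPKM in drug libraries, against 43.6 and 42.7 FPKM in control libraries (limma adjusted p = 0.0065). BAMBI, a pseudoreceptor gene and pathway target, was abundant and did not pass, at 71.7 and 75.6 FPKM in drug libraries and 70.9 and 78.3 FPKM in control libraries (adjusted p = 0.862).

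In the TGF-beta branch 10 of 14 listed genes were tested and 1 passed the test. TGFBR2, the type II TGF-beta receptor gene, rose to 35.5 and 36.3 FPKM in drug libraries, against 24.1 and 24.3 FPKM in control libraries (log2 fold change 0.55 ± 0.03 SE, limma adjusted p = 0.00152). Over the 8 lists together, 5 of 49 tested genes rose and 5 fell, with a median log2 fold change of 0.04, while 13.8% of all tested genes passed in either direction. With no filter on low values 7 of these 10 calls were lost, those of ID4 and SKIL (limma adjusted p = 0.0528 each), GATA2 (0.0631), BMP6 (0.102), HES1 (0.107), SMAD3 (0.112) and GATA3 (0.144). The replicate block ended the calls of SMAD3 (0.0646), HES1 (0.0671), BMP6 (0.0763) and GATA3 (0.0801), and TMM-scaled FPKM those of HES1 (0.0501) and SMAD3 (0.0627).

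**Figure D3:**
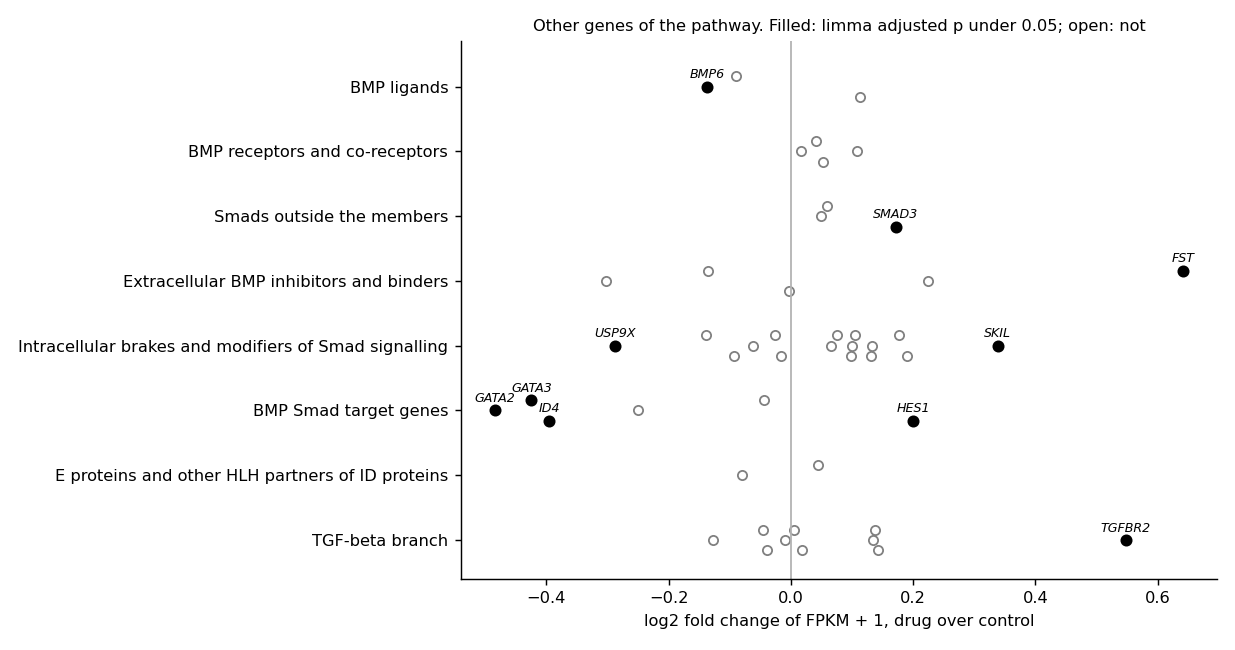
Log2 fold change of FPKM + 1, drug over control, for the 49 tested genes of 8 lists outside the 10 members, 1 point a gene, filled where limma's adjusted p was under 0.05. The 10 filled points lie between -0.48 (GATA2) and 0.64 (FST), and no gene of the BMP receptor or E protein lists is filled.

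By level per length, ID1 and ID2 led the 10 genes in every library. In drug libraries BMP4 followed and then SMAD5, while in control libraries SMAD5 stood above BMP4 (11.2 to 11.6 against 8.68 to 8.82 FPKM). SMAD7 and SMAD6 overlapped in drug libraries, and SMAD6 and BMPR1A overlapped in control libraries. BMPR2, SMAD1 and ID3 came last in both groups, in that order.

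Among the 9 tested members, 3 had both drug libraries above both controls and 4 had both below. Over all tested genes those shares were 40.3% and 23.3%, so a lack of overlap alone is common in this comparison. With edgeR on recovered reads 1 member was higher and 4 were lower, SMAD7 being the addition, while 8.37% and 11% of tested genes were called in those directions. With DESeq2 1 was higher and 3 were lower, against 7.03% and 10.1% of the genes it tested. In the authors' deposited table, 1 member was higher and 3 were lower at an adjusted p under 0.05, with 3.18% and 4.03% of its genes called in those directions. Its log2 fold changes were -0.75 for ID1, -0.64 for ID2, -0.43 for SMAD6 and 0.69 for BMP4, and its label for each of the 10 genes was stable.

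**Figure D4:**
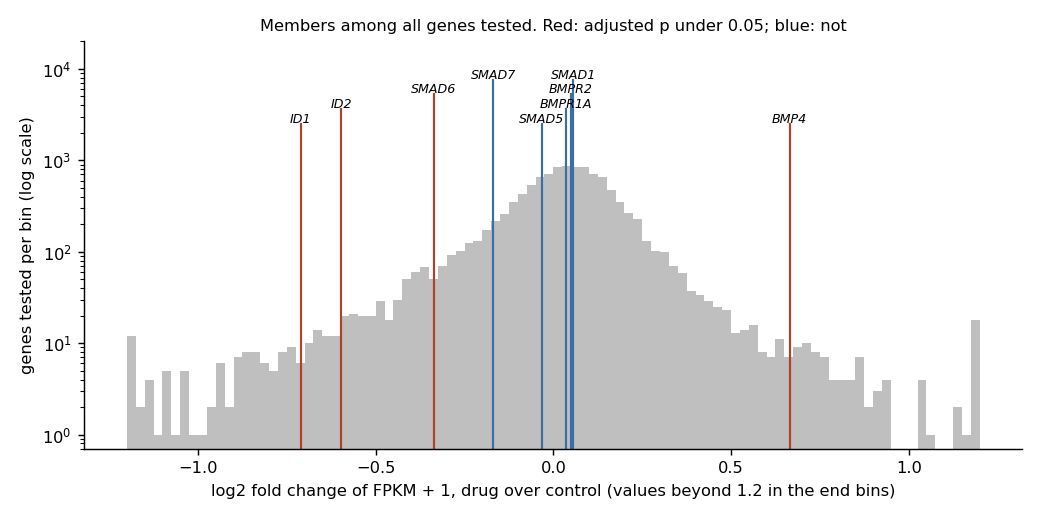
Number of tested genes (log axis) by log2 fold change of FPKM + 1, drug over control, with vertical lines at the 9 tested members (red where limma's adjusted p was under 0.05). ID1, ID2 and BMP4 lie in the sparse tails and the receptor genes near the peak of the distribution.

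Genes whose profile over the 4 libraries lay nearest to the mean profile of ID1, ID2 and ID3 were RAB11FIP4, MSMO1, LIN7A, INTS1 and HPD, at Euclidean distances of 0.0382 to 0.0441 on centred log2(FPKM + 1) among 8371 protein-coding genes. Their log2 fold changes were -0.42 to -0.49. The near-zero values of ID3 make that mean profile shallower than those of ID1 and ID2. With ID1 and ID2 alone, a choice made after the values were seen, the nearest were TGM2, ADAMTSL4, FABP5, DEPTOR and CDH1, at distances of 0.0341 to 0.0674. CDH1, the E-cadherin gene, had 7.72 and 7.87 FPKM in drug libraries and 12.4 FPKM in each control library. With 4 libraries in 2 groups, this likeness mostly restates a difference of similar size.

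**Figure D5:**
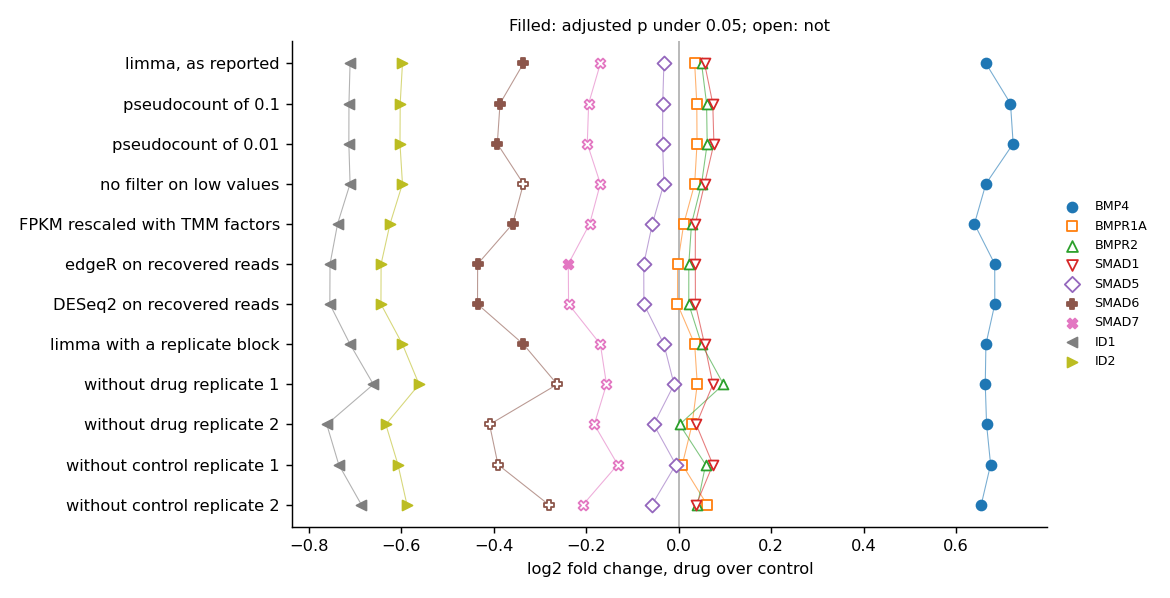
Log2 fold change, drug over control, of the 9 tested members under the reported test and each of 11 alternatives, filled where the adjusted p was under 0.05. BMP4, ID1 and ID2 are filled in every row, SMAD6 is open in 5 rows and SMAD7 is filled in 1.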

How the data were processed

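Messenger RNA libraries followed Illumina's stranded TruSeq guide, per the labels. The submitters' processing notes name bcl2fastq and hg38. Aligner, counter, annotation and test were not given in the sources used here. Columns per library hold FPKM made by the authors. This unit was identified from the values: gene lengths implied by FPKM and reads had a median of 1.00 times the GENCODE 29 exon length over 25091 genes, and 64.7% of them were within 1%. The group columns are a signal the authors made, the mean over 2 libraries of reads divided by a size factor. The deposited log2 fold changes, p-values and adjusted p-values are the authors' own comparison.

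FPKM and group means were solved together for the whole reads of each library, and 100% of values in each library lay within 0.1 of a whole read. The drug column passes a test for whole multiples of a single step by itself. The control column by itself does not, as its libraries had size factors of 0.781 and 1.06. DESeq2 on the recovered reads of all 26603 genes gave log2 fold changes within 1e-04 of the authors' deposited values. The DESeq2 results given here are from another fit, on filtered genes.

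The test was limma 3.58.1 with trend on log2(FPKM + 1) for the 11227 genes averaging 1 FPKM or more in either group. This scale understates changes of low genes. P-values were adjusted over all tested genes, with a threshold of 0.05. Alternatives were pseudocounts of 0.1 and 0.01, no filter, TMM-scaled FPKM, edgeR 4.0.16 and DESeq2 1.42.0 on recovered reads, a fit with the replicate number as block, and fits that leave out each library in turn. Fits and read recovery were tested on simulated data. All 10 members and, from 8 lists of 88 further pathway genes (80 in the table; some listed genes are not reported here and are left out of the list counts), up to 6 per list that passed limma were named, with ID4, HAMP, SMAD4, SMAD9, TCF3, TCF4 and TCF12, and the 5 nearest profiles. ACVR1, ACVR2A, ACVR2B, NEO1, BMP2, BMP8B, GDF7, CHRD, NOG, BAMBI, FGB, AMBP and HNF4A fall outside this rule, chosen once values were known. So do ALB, TF, APOA1, APOH, HEY1 and RUNX3. The members and lists were chosen with earlier results of these data known. Software was Python 3.11.15 (pandas 2.3.3, numpy 2.4.6, matplotlib 3.10.9) and R 4.3.3.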

Additional observations from a re-analysis of the deposited data

How the results depend on the processing

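BMP4, ID1 and ID2 kept their direction and their call under all 11 alternatives, with log2 fold changes of 0.64 to 0.72, -0.76 to -0.66 and -0.64 to -0.56. SMAD6 kept its direction (-0.44 to -0.26) and lost its call in 5 of 11, those named above. SMAD7 passed with edgeR alone. BMPR1A stood at -0.0023 with edgeR and -0.0026 with DESeq2, each indistinguishable from 0, where the median of all tested genes was 0.0018 and 0.0016, against 0.04 as reported. It passed in no alternative, and BMPR2, SMAD1 and SMAD5 kept their signs and passed in none. ID3 had a test only with no filter. Counts over all genes moved more. As reported, 873 genes rose and 676 fell, so 56.4% of calls were higher. With no filter 170 rose and 214 fell, and with TMM-scaled FPKM 560 rose and 716 fell (43.9% higher). With edgeR 940 rose and 1233 fell (43.3% higher), and with DESeq2 774 rose and 1109 fell (41.1% higher). With 1 library left out, 167 to 298 rose and 253 to 315 fell, and a lone library was assumed to vary like the other group. Members called were 1 higher in each and 2 lower, against 3 lower as reported. The cause of these moves was not tested. Fits with 1 library left out also had fewer libraries.

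The replicate numbers of the labels showed no pairing by the check used: deviations of same-numbered libraries from their group means correlated at 0.028 over 11227 genes. Such a check, on 2 libraries a group, cannot exclude a pairing. With the replicate block 474 genes rose and 451 fell, the calls of the members were as reported, and 4 of the 10 calls on pathway lists were lost, as given above. With 2 libraries a group, small differences such as those of the receptor genes could not be told from 0.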
